A study of Mus musculus with 9 samples.

Results

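The genes described here are p53 and 9 genes that it is known to induce: Mdm2, Ccng1, Zmat3, Sesn2, Gadd45a, Trp53inp1, Pmaip1, Bbc3 and Bax. They were taken from the array table by symbol, using rows that the platform annotation pairs with exactly 1 gene symbol. Of the 10 genes, 8 were found among the 19938 genes of the table, each with 1 row. Trp53, which encodes p53, and Bax are not analysed here, so no value below is a level of the p53 transcript or protein. Fibroblasts from adult mouse hearts were compared with cells labelled as dedifferentiated cardiac fibroblasts. By the title of the series, the dedifferentiated cells were made with protein. Embryonic stem (ES) cells were a separate group, compared with both. Every sample carries the strain label C57BL/6, and no genotype, transgene, passage or exact age is given. There were 3 groups of 3 samples, with 1 Affymetrix Mouse Gene 1.0 ST array for every sample. The source label of the fibroblasts also names ES cells, and the titles were followed here.

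p53 is a transcription factor that is held at a low level by Mdm2, a ubiquitin ligase that binds p53 and marks it for degradation. DNA damage and other stresses release p53 from Mdm2, and p53 then induces genes that halt the cell cycle, restrain growth, or start apoptosis through proteins of the BCL2 family. Mdm2 is itself induced by p53, which closes a negative feedback loop. In ES cells, p53 is known for favouring differentiation and apoptosis, and loss of p53 is known to raise the yield of reprogrammed cells.

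Group identity was checked on marker lists. In this paragraph, a marker counted as higher, lower or called changed by at least 1 log2 unit with a limma adjusted p under 0.05. All 11 fibroblast markers, such as Col1a1 and Thy1, were lower in dedifferentiated and in ES cells than in fibroblasts, and 8 and 9 of 9 ES cell markers were higher. Without a required size, 9 of 9 were higher in dedifferentiated cells as well. The mean log2 level of the fibroblast markers lay at 10.61 to 10.73 on the fibroblast arrays, 5.53 to 5.63 on the dedifferentiated arrays and 5.1 to 5.18 on the ES arrays. The fibroblast arrays had a mean Xist level of 7.31 ± 0.074 (log2, SD, n = 3), against 3.25 ± 0.21 for the dedifferentiated and 3.15 ± 0.32 for the ES arrays. Xist RNA covers the silenced X chromosome of female cells. The Y-linked Eif2s3y was at 3.55 ± 0.12, 8.09 ± 0.12 and 7.76 ± 0.25 in the same order. Fibroblasts thus differed from both other groups in sex-linked transcripts, and in each comparison with fibroblasts this difference and that of cell state cannot be told apart. The profiled fibroblasts are therefore not taken as the parent cells of the dedifferentiated samples. Below, rose and fell describe differences between group means only. Of 11 macrophage markers, 5 were lower and 1 higher in each comparison with fibroblasts. Without a required size, 10 were lower and 1 higher in each. The gene that rose was Cd68, with means of 6.97, 8.02 and 8.71 in fibroblasts, dedifferentiated and ES cells, while Lyz2 went from 8.85 to 3.2 and 3.34. The summed linear level of the 11 markers, which includes Cd68, was 855 to 1030 on fibroblast arrays, 402 to 411 on dedifferentiated arrays and 533 to 627 on ES arrays. Of 5 smooth muscle markers, 3 were lower in both comparisons, and 5 without a required size. The sum of the 5 was 12800 to 14500, 1180 to 1400 and 900 to 1020 in the same order. The 3 were Acta2, Tagln and Cnn1, with fibroblast means of 13.05, 12.22 and 7.92. Myh11 and Smtn were not called, and Myh11 had means of 5.27, 4.56 and 4.6. Whether the Acta2 and Tagln RNA came from smooth muscle cells or from the fibroblasts themselves was not tested. Of 8 endothelial markers, 4 were higher and 1 lower in dedifferentiated cells and 1 was higher and 1 lower in ES cells, with sums of 266 to 313, 558 to 601 and 388 to 429. None of 8 cardiomyocyte markers was called, with sums of 254 to 309, 303 to 309 and 251 to 269. The part of RNA from such other cells in the values below was not tested. Among the ES arrays, replicate 1 correlated with the other two at 0.9882 and 0.9875, and those with each other at 0.9923.

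The deposited values are log2 expression values, and a difference of 1 log2 unit is a doubling. Below, called genes are those that changed by 1 log2 unit or more with a limma adjusted p under 0.05 (Benjamini-Hochberg over all 19938 genes). No label ties the replicates to separate animals or cultures, so the p-values rest on the spread between samples that may be technical replicates only. In bulk RNA, fewer cells of a type and less RNA per cell cannot be told apart.

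The p53 target genes split into 4 that were called higher in both dedifferentiated and ES cells than in fibroblasts and 4 that were not called. Pmaip1, Gadd45a, Trp53inp1 and Sesn2 rose by 1.4 to 2.71 log2 units. Mdm2, Ccng1, Zmat3 and Bbc3 differed from fibroblasts by -0.32 to 0.71. The 4 of 8 called higher, in each comparison with fibroblasts, stand beside 8.79% of all genes called higher in dedifferentiated cells and 8.85% in ES cells. None of the 8 was called lower, against 10.1% and 10.4% of all genes. The median difference of the 8 genes was 0.98 in dedifferentiated cells and 1.05 in ES cells, against 0.01 and 0.02 over all genes. Both comparisons use the same fibroblast arrays. None of the 8 was called between dedifferentiated and ES cells by limma, against 1.55% of all genes. At an unadjusted p under 0.05 there were 4 of the 8, against 6086 of all 19938 genes.

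**Figure D1:**
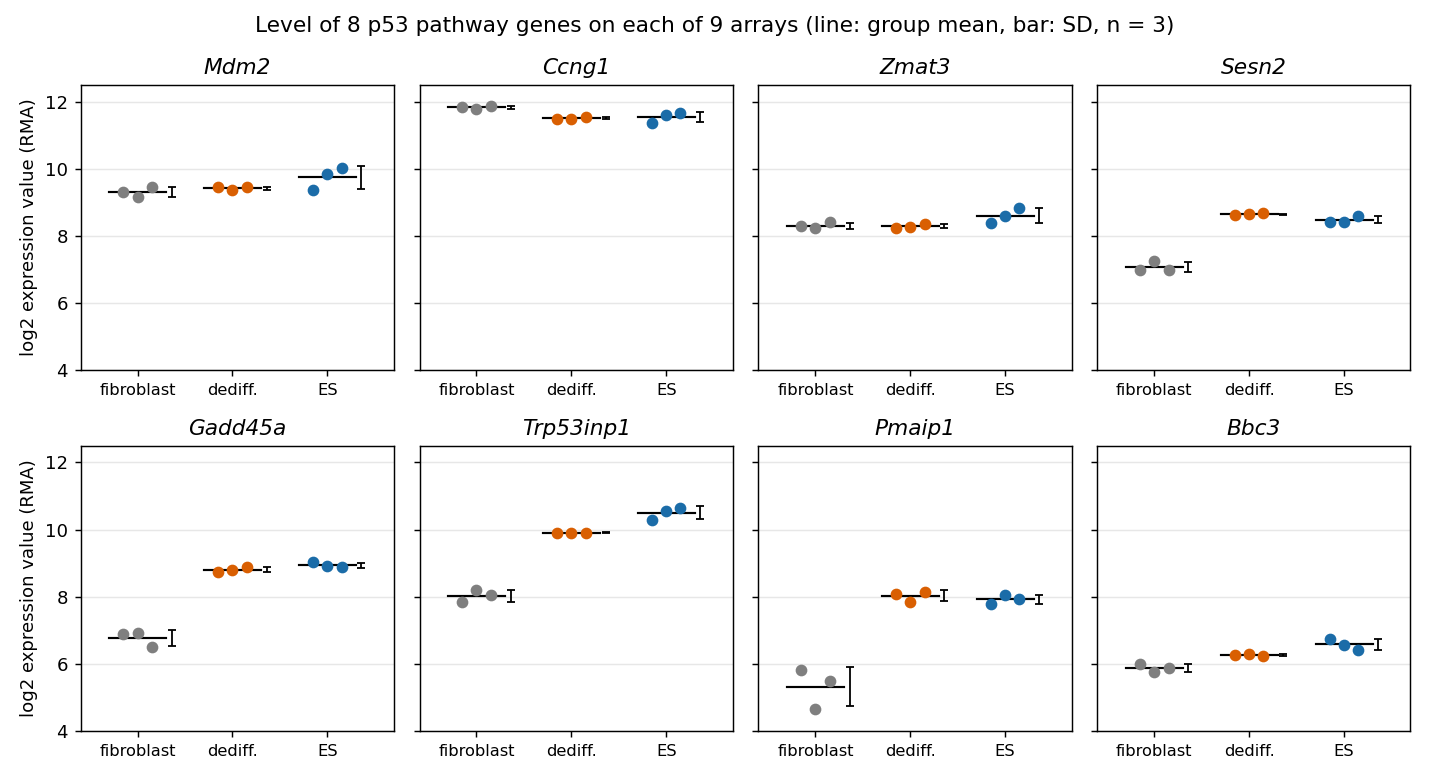
Log2 expression value (vertical axis, same scale in all panels) of the 8 genes on each of the 9 arrays, with the group mean as a line and the SD as a bar (n = 3). The fibroblast points of Sesn2, Gadd45a, Trp53inp1, Pmaip1 and Bbc3 lie below all dedifferentiated and ES points, and those of Ccng1 above them. Those of Mdm2 and Zmat3 overlap with them.

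The feedback regulator Mdm2 showed small differences. Its log2 level was 9.31, 9.17 and 9.45 on the fibroblast arrays, 9.45, 9.36 and 9.45 on the dedifferentiated arrays, and 9.37, 9.84 and 10.03 on the ES arrays. The ES replicates 2 and 3 were above every other array, while ES replicate 1 lay within the fibroblast range, so the groups overlapped. Dedifferentiated cells differed from fibroblasts by 0.11 (95% interval -0.21 to 0.43, limma adjusted p = 0.6). ES cells differed from fibroblasts by 0.44 (0.12 to 0.76, limma adjusted p = 0.026), and that p rose above 0.05 without fibroblast replicate 1 (0.064) or 2 (0.1) or ES replicate 2 (0.092) or 3 (0.11). Dedifferentiated cells differed from ES cells by -0.33 (-0.65 to -0.01, limma adjusted p = 0.15), and by -0.52 without ES replicate 1 (adjusted p = 0.0042).

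Ccng1 encodes a cyclin that p53 induces in many tissues. It was at 11.84, 11.78 and 11.86 on the fibroblast arrays, 11.49, 11.48 and 11.54 on the dedifferentiated arrays and 11.37, 11.59 and 11.65 on the ES arrays. All fibroblast values were above all others, the only such case among the 8 genes. The difference from fibroblasts was -0.32 in dedifferentiated cells (95% interval -0.51 to -0.13, limma adjusted p = 0.0078) and -0.29 in ES cells (-0.48 to -0.1, adjusted p = 0.014). A further quantile normalization reduced the difference in ES cells to -0.09 (adjusted p = 0.32). Dedifferentiated and ES cells differed by -0.03 (-0.22 to 0.16).

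Zmat3 encodes a zinc finger protein that binds RNA. Its fibroblast arrays read 8.29, 8.23 and 8.41, its dedifferentiated arrays 8.25, 8.28 and 8.35, and its ES arrays 8.39, 8.58 and 8.82. Fibroblast and dedifferentiated values overlapped, with a difference of -0.02 (95% interval -0.25 to 0.22). ES cells were above fibroblasts by 0.29 (0.05 to 0.52, limma adjusted p = 0.043), with overlapping arrays. That p rose above 0.05 when any 1 array other than fibroblast replicate 3 or ES replicate 1 was left out, reaching 0.16 without ES replicate 3. Every dedifferentiated value was below every ES value, by 0.3 on average (limma adjusted p = 0.068, and 0.011 without ES replicate 1).

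The promoter table holds windows for 5 of the 8 genes, each from 250 bases before to 50 bases after an annotated start (RefSeq, GRCm38.p6). They were searched on both strands for the 10-base p53 consensus, of which a full response element has 2 copies. An exact copy occurred in 3 of 7 windows of these genes, namely those of Mdm2, Ccng1 and Gadd45a, and in 8.36% of all 32851 windows. A pair of copies 0 to 13 bases apart, with at most 2 mismatches in all, occurred in 2 of the 7 windows and in 4.09% of all windows. The upstream 250 bases of Mdm2 and Ccng1 are shown because these classic targets were not called between groups, with the matching letters in capitals. They lie at chr10:117710759-117711008 and chr11:40755287-40755536, both on the minus strand.
Mdm2: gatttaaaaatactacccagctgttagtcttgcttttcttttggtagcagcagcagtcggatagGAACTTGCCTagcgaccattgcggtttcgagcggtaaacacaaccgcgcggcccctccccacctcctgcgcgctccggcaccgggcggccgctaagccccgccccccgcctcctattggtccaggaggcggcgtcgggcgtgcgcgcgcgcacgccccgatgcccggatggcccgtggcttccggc
Ccng1: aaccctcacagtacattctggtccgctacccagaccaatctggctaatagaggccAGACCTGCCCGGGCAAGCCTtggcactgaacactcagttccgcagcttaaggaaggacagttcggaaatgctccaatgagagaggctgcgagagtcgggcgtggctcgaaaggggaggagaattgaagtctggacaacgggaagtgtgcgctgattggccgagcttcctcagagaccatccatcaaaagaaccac
The Ccng1 window held 2 pairs by this rule, and the one with the fewest mismatches, then the fewest bases between the copies, is marked. It lies from -195 to -176 relative to the start, with 0 bases between the copies and 1 mismatch. Mdm2 has a single exact copy from -186 to -177.

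Sesn2 encodes a sestrin, a stress protein that restrains the growth kinase mTOR. It was at 7.0, 7.26 and 7.0 on the fibroblast arrays, 8.63, 8.64 and 8.67 on the dedifferentiated arrays and 8.42, 8.42 and 8.6 on the ES arrays. The 3 groups did not overlap, with dedifferentiated cells highest. Sesn2 was 2.95-fold higher in dedifferentiated cells than in fibroblasts (1.56 log2 units, 95% interval 1.36 to 1.76, limma adjusted p = 4.2e-08). In ES cells it rose 2.63-fold (1.4 log2 units, 1.2 to 1.6, adjusted p = 1.1e-07). The dedifferentiated and ES means differed by 0.16 (-0.04 to 0.36, adjusted p = 0.27).

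Gadd45a, a growth arrest gene induced by DNA damage, read 6.89, 6.92 and 6.49 on the fibroblast arrays, 8.74, 8.81 and 8.89 on the dedifferentiated arrays and 9.02, 8.92 and 8.88 on the ES arrays. All dedifferentiated and ES values were above those of fibroblasts, and these 2 groups overlapped with each other. The rise was 4.13-fold in dedifferentiated cells (2.05 log2 units, 95% interval 1.8 to 2.29, limma adjusted p = 2.7e-08). It was 4.5-fold in ES cells (2.17, 1.92 to 2.42, adjusted p = 1.6e-08). Between dedifferentiated and ES cells the difference was -0.13 (-0.37 to 0.12).

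Sesn2 and Gadd45a rose together, and their upstream 250 bases are shown for that reason, at chr4:132510457-132510706 and chr6:67037408-67037657 on the minus strand. Capitals mark the letters of the p53 consensus copies, where there are any.
Sesn2: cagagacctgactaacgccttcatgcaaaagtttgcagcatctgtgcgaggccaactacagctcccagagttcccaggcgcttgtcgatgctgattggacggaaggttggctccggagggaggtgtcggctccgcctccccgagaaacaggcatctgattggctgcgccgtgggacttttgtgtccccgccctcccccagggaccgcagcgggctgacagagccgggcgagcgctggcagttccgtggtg
Gadd45a: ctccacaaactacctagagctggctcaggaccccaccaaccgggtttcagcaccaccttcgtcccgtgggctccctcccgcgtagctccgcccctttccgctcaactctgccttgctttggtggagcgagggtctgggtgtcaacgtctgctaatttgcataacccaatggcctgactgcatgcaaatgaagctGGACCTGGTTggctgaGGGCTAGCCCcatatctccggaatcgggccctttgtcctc
The Gadd45a window held 2 pairs by this rule, and the marked one was chosen in the same way. It lies from -56 to -31, with 6 bases between the copies and 2 mismatches. The Sesn2 window held no copy and no pair by this rule. A called gene and an uncalled gene thus each had a pair, Gadd45a and Ccng1, and the letters are a description of the windows only.

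Trp53inp1, a nuclear stress protein that promotes p53 activity, was at 7.84, 8.19 and 8.06 on the fibroblast arrays, 9.91, 9.89 and 9.89 on the dedifferentiated arrays, and 10.28, 10.56 and 10.65 on the ES arrays. The 3 groups did not overlap and stood in the order fibroblast, dedifferentiated, ES. Trp53inp1 rose 3.64-fold in dedifferentiated cells (1.87 log2 units, 95% interval 1.62 to 2.11, limma adjusted p = 5.2e-08) and 5.53-fold in ES cells (2.47, 2.22 to 2.71, adjusted p = 4.7e-09). Dedifferentiated cells were below ES cells by an average of 0.6 log2 units, a ratio of 0.659 (95% interval 0.556 to 0.781, adjusted p = 0.0027). This was short of the required size, and its adjusted p stayed at 0.015 or below in all 23 alternatives. Those alternatives that changed only the thresholds keep the p of the main fit.

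Pmaip1 encodes NOXA, a small BCL2 family member that binds and disables the survival protein MCL1. Its log2 level was 5.81, 4.66 and 5.49 on the fibroblast arrays, 8.09, 7.85 and 8.15 on the dedifferentiated arrays and 7.78, 8.04 and 7.93 on the ES arrays. Fibroblast replicate 2 was the lowest of all and lay within the range of the array medians (4.647 to 4.859). Without detection calls, the size of the rise is thus not exact. The highest fibroblast array was still below each dedifferentiated and ES array. Pmaip1 had the widest range of group means of the 8 genes, 2.71 log2 units. It rose 6.53-fold in dedifferentiated cells (95% interval 4.6 to 9.28, limma adjusted p = 1.1e-06) and 6.06-fold in ES cells (4.27 to 8.61, adjusted p = 1.5e-06). Dedifferentiated and ES cells differed by 0.11 (-0.4 to 0.61). Across the alternatives, the rise ranged from 2.38 to 2.95 log2 units in dedifferentiated cells and from 2.27 to 2.85 in ES cells.

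The genes whose pattern over the 9 arrays was most like that of Pmaip1 were Rhpn2, Tbx3, Mkrn1-ps1, Slc39a4 and Rnf17. After subtracting each gene's mean, their root mean square difference from Pmaip1 was 0.185 to 0.265 log2 units. The arrays share the same 3 groups, so the measure mostly compares steps between groups. Tbx3, a transcription factor of naive ES cells, had group means of 4.89 (fibroblasts), 7.57 (dedifferentiated) and 7.71 (ES).

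Bbc3 encodes PUMA, another BCL2 family member that p53 uses to start apoptosis. It read 6.0, 5.75 and 5.87 on the fibroblast arrays, 6.27, 6.3 and 6.23 on the dedifferentiated arrays and 6.75, 6.57 and 6.42 on the ES arrays. The 3 groups did not overlap, in the same order as for Trp53inp1. The difference from fibroblasts was 0.39 in dedifferentiated cells (95% interval 0.17 to 0.61, limma adjusted p = 0.0057) and 0.71 in ES cells (0.49 to 0.92, adjusted p = 6.9e-05). Dedifferentiated cells were lower than ES cells by 0.32 on average (adjusted p = 0.04). That p rose above 0.05 when any 1 array other than fibroblast replicate 1 or 2 or ES replicate 3 was left out, with a highest value of 0.13.

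Bbc3 has 3 annotated starts in the table, and none of its windows held a pair with at most 2 mismatches. When 3 mismatches were allowed, a setting chosen after the windows were seen, pairs occurred in 4 of the 7 windows of the genes and in 15.6% of all windows. The first and the second Bbc3 window then each held a pair, that of the second from -105 to -84 with 2 bases between the copies. The pair of the first window is shown because p53 is known to act on Bbc3 close to its start. It lies at chr7:16309486-16309505 on the plus strand, from -97 to -78 with 0 bases between the copies. Whether p53 acts on either pair was not tested.
Bbc3: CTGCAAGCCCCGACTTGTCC

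At an adjusted p under 0.05 without a required size, 6 of the 8 genes differed between dedifferentiated cells and fibroblasts, against 47.4% of all genes. Of these, 5 were higher and 1 lower, against 25.0% and 22.4% of all genes. In ES cells against fibroblasts 8 of 8 differed, against 49.0% of all genes, with 7 higher and 1 lower, against 26.1% and 22.9%. Between dedifferentiated and ES cells 2 of 8 differed, against 21.3%. The 2 genes were Trp53inp1 and Bbc3, both lower in dedifferentiated cells. That count was 3 without ES replicate 1, and it was 1 without ES replicate 2, fibroblast replicate 3 or any 1 of the dedifferentiated arrays. Arrays of the compared groups did not overlap for 6, 6 and 4 of the 8 genes, against 54.7%, 51.9% and 32.6% of all genes. ES replicate 1 held the lowest ES value of 6 of the 8 genes, and of 40.3% of all genes.

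**Figure D2:**
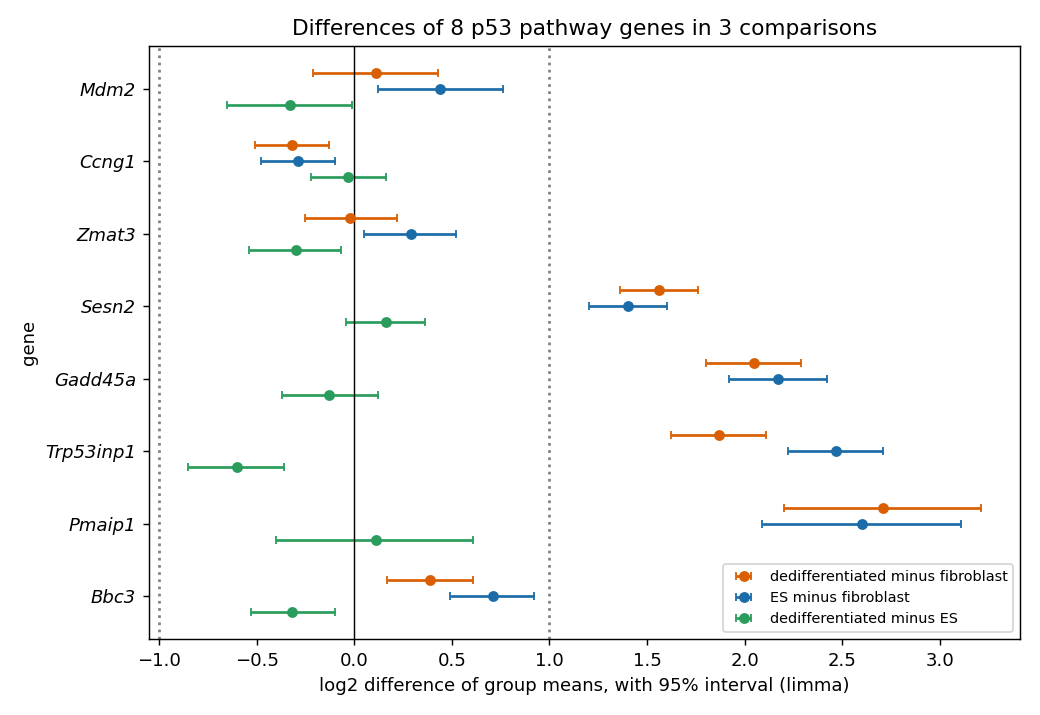
Log2 difference of group means (horizontal axis) of the 8 genes in the 3 comparisons, as points with 95% intervals from limma, and dotted lines at 1 log2 unit. The intervals of Sesn2, Gadd45a, Trp53inp1 and Pmaip1 against fibroblasts lie wholly above 1, and every interval between dedifferentiated and ES cells lies within 1 log2 unit of 0.

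Among genes that act on p53, more were called higher than lower against fibroblasts. Of 30 measured regulators, 10 were higher and 3 lower in dedifferentiated cells than in fibroblasts, and 12 were higher and 3 lower in ES cells. In all, 13 and 15 of the 30 were called, against 18.9% and 19.2% of all genes. The median difference was 0.79 in dedifferentiated cells and 0.67 in ES cells. Sirt1, a deacetylase that acts on p53, rose by 3.08 log2 units in dedifferentiated cells (95% interval 2.86 to 3.3) and by 2.17 in ES cells (1.95 to 2.38). Trim24, a ubiquitin ligase for p53, rose by 2.08 and 1.99, and the corepressor Trim28 rose by 2.1 and 1.76. Hipk2, a kinase that activates p53, fell by 1.65 and 2.07 in the same order. Other genes that can activate p53 rose, such as the kinase Chek1 by 1.97 and 1.98 and the acetyltransferase Ep300 by 1.52 and 1.22. Whether the activity of p53 differed was not tested. Twist1, a mesenchymal factor that counters p53, fell by 1.79 and 2.19, and the methyltransferase Setd7 fell by 1.36 and 1.16.

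Mdm4, the partner of Mdm2 that blocks the activation domain of p53, was the only regulator called in all 3 comparisons. It was at 7.15, 6.97 and 7.26 on the fibroblast arrays, 8.22, 8.17 and 8.22 on the dedifferentiated arrays and 9.08, 9.37 and 9.53 on the ES arrays. The groups did not overlap, and the dedifferentiated cells stood between the others. Mdm4 rose by 1.07 in dedifferentiated cells (95% interval 0.82 to 1.33, limma adjusted p = 8.8e-06), although by 0.99 without fibroblast replicate 2, just under the required size. It rose by 2.2 in ES cells (1.94 to 2.45, adjusted p = 1.8e-08). Dedifferentiated cells had 0.458 times the ES level (0.384 to 0.547, adjusted p = 7e-05).

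Cdkn2a, whose ARF product inhibits Mdm2, differed from fibroblasts by 0.2 in dedifferentiated cells (adjusted p = 0.091) and by 0.27 in ES cells (adjusted p = 0.025). The ARF and INK4a products of this gene were not told apart here. The p53 relatives Trp63 and Trp73 differed by 0.03 and 0.5 in dedifferentiated cells and by 0.12 and 0.43 in ES cells, below the required size. Trp63 had means of 4.34, 4.37 and 4.46 in fibroblasts, dedifferentiated and ES cells. These lie below the median of every array (4.647 to 4.859), where changes are compressed.

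**Figure D3:**
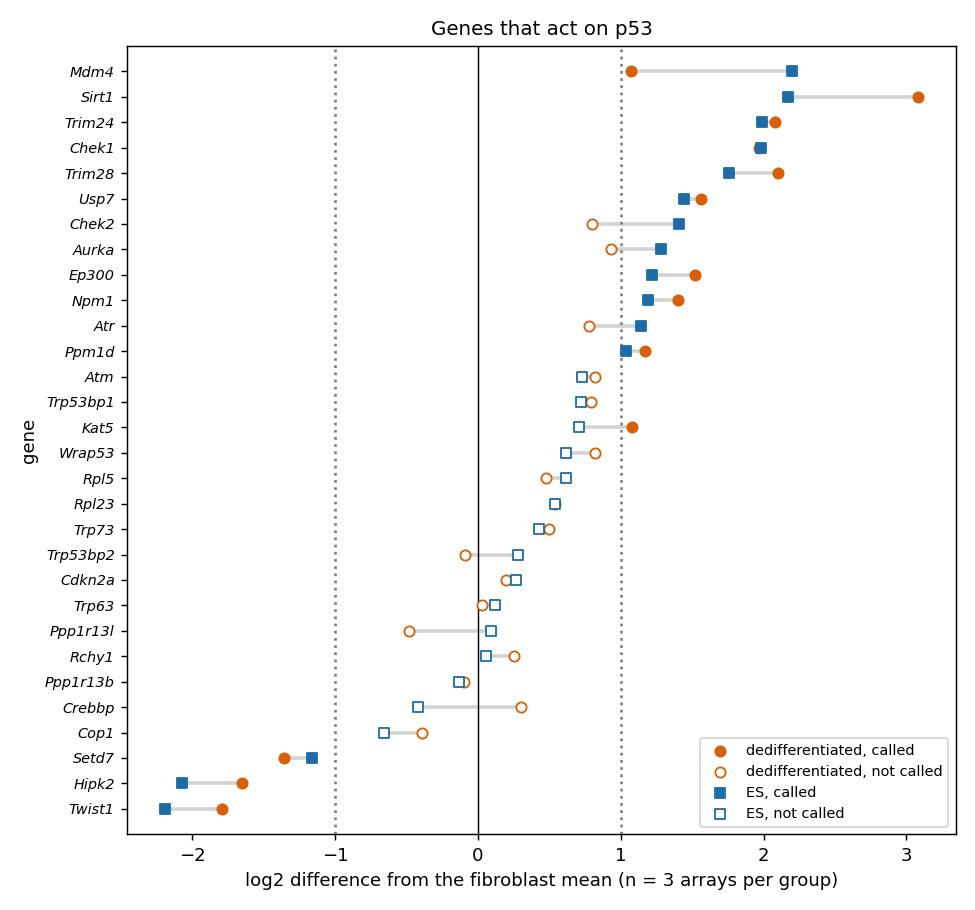
Log2 difference from the fibroblast mean (horizontal axis) of 30 genes that act on p53, in dedifferentiated cells (circles) and ES cells (squares), filled where called. Mdm4 shows a wide gap between the groups, at 1.07 and 2.2, and Sirt1 a gap in the other direction, at 3.08 and 2.17.

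Other genes listed as p53 targets went both ways. Of 41 measured, 5 were higher and 6 lower in dedifferentiated cells than in fibroblasts (26.8% called, against 18.9% of all genes), and 9 were higher and 6 lower in ES cells (36.6%, against 19.2%). The median difference was 0.05 and 0.36, against 0.01 and 0.02 over all genes. Perp, a desmosomal protein that p53 induces in apoptosis, rose by 2.55 in dedifferentiated cells (95% interval 2.22 to 2.88) and by 3.83 in ES cells (3.51 to 4.16). Sfn, the cell cycle inhibitor stratifin, rose by 3.08 and 2.95, and both of its rows showed the rise. Trp53i11 rose by 2.4 and 1.47, and the spindle protein Psrc1 rose by 1.12 and 2.05.

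Among the targets that fell was Thbs1. This gene of the secreted angiogenesis inhibitor thrombospondin fell by 3.39 in dedifferentiated cells and by 4.2 in ES cells. The death receptor gene Fas fell by 3.39 and 3.18, to means of 3.71 and 3.92. These lie below the median of every array (4.647 to 4.859), and without detection calls the size of such a fall is not exact. The same limit holds for the rise of Perp, whose fibroblast mean was 4.62. Among genes described below, it holds for Bcl2 (4.48 in dedifferentiated and 4.4 in ES cells) and Slc7a11 (4.35 and 3.74). The fibroblast mean of Bcl2l11, 4.66, lay within the range of these medians. Ephx1, an epoxide hydrolase, fell by 3.65 in dedifferentiated cells and fell by 2.85 in ES cells. The cytokine gene Lif fell by 2.99 and 3.37. Cdkn1a, the classic p53-induced cell cycle inhibitor, is not analysed here because its row also carries another symbol.

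Between dedifferentiated and ES cells, 1 of the 41 other targets was higher and 1 lower, that is 4.88% against 1.55% of all genes. Perp was lower by 1.29 on average (adjusted p = 0.00015). Dram1, an autophagy gene, was higher by 1.04 (95% interval 0.64 to 1.43, adjusted p = 0.0019). Its ES values were 6.33, 7.02 and 7.2, and without ES replicate 1 the difference was 0.78, below the required size. Leaving out that array gave 5 called genes, all lower in dedifferentiated cells, and leaving out dedifferentiated replicate 2 gave 1. At an adjusted p under 0.05 of any size, 16 of the 41 were lower and 5 higher in dedifferentiated cells. Of all genes, 11.2% were higher and 2003 of 19938 lower by that rule. The median difference was -0.21.

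**Figure D4:**
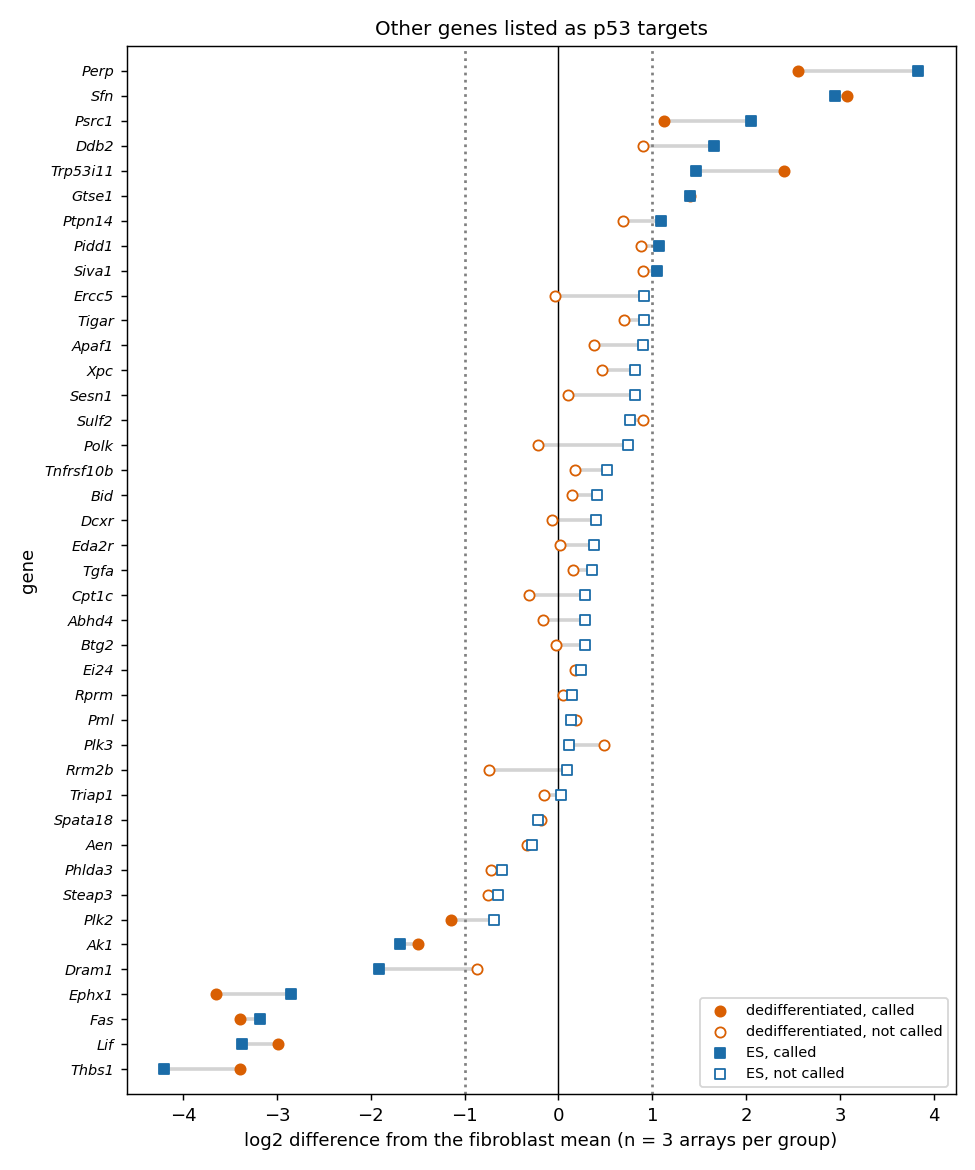
Log2 difference from the fibroblast mean (horizontal axis) of 41 other genes listed as p53 targets, in dedifferentiated cells (circles) and ES cells (squares), filled where called. Perp and Sfn lie at the top, Ephx1, Fas, Lif and Thbs1 at the bottom, and most genes within 1 log2 unit of 0.

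The BCL2 family, through which Pmaip1 and Bbc3 act, had 1 gene higher and 3 lower of 15 in dedifferentiated cells (26.7% called, against 18.9% of all genes), and 2 higher and 3 lower in ES cells (33.3%, against 19.2%). Bcl2l11, which encodes the death activator BIM, was at 4.59, 4.69 and 4.7 on the fibroblast arrays, 7.37, 7.31 and 7.36 on the dedifferentiated arrays and 6.99, 7.02 and 6.99 on the ES arrays. It rose 6.43-fold in dedifferentiated cells (95% interval 5.79 to 7.14, limma adjusted p = 4.6e-11) and 5.06-fold in ES cells (4.55 to 5.62, adjusted p = 1.3e-10). Bmf, a related gene that promotes cell death, rose by 1.43 in ES cells and differed by 0.51 in dedifferentiated cells.

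Survival genes of the family did not move as a block. Bcl2 fell by 1.21 in dedifferentiated cells and by 1.3 in ES cells, and its relative Bcl2l2 fell by 1.32 and 1.39. Bcl2l1, which encodes BCL-XL, differed by -0.78 and -0.88, and Mcl1, the partner of Pmaip1, by 0.77 and 0.85, all with adjusted p under 0.05 but below the required size. After a further quantile normalization the Mcl1 difference in ES cells was 1.06 and was called. Bok, a pore-forming relative of Bax, fell by 1.24 and 1.59, and Bak1 differed by -0.55 and -0.54. Between dedifferentiated and ES cells, 0 of the 15 genes were called by limma and 5 had an unadjusted p under 0.05, against 6086 of all 19938 genes. Bmf had the smallest p, at a difference of -0.92 (adjusted p = 0.001), and was called at -1.04 without ES replicate 2.

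**Figure D5:**
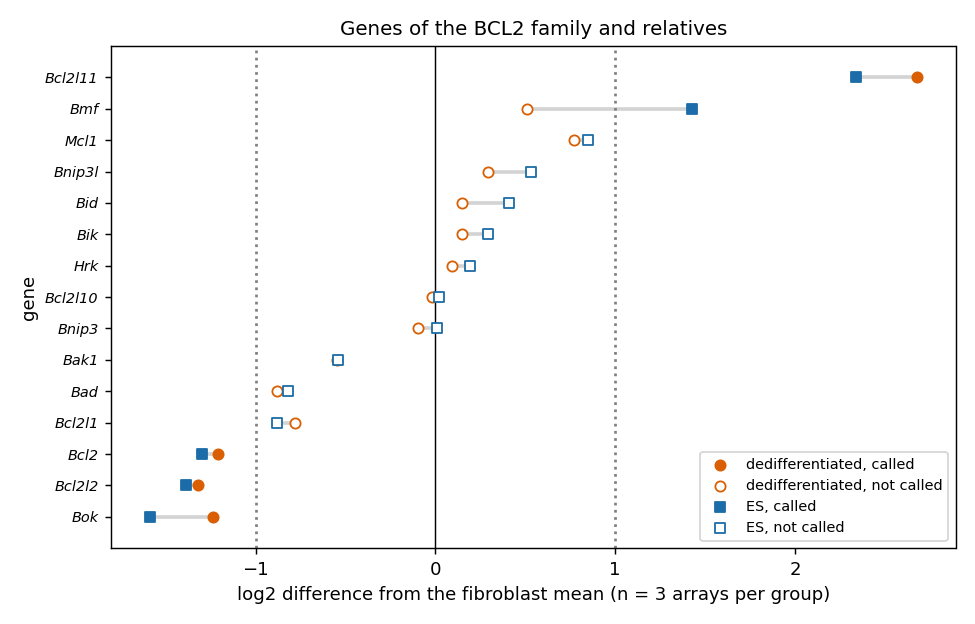
Log2 difference from the fibroblast mean (horizontal axis) of 15 genes of the BCL2 family and its relatives, in dedifferentiated cells (circles) and ES cells (squares), filled where called. Bcl2l11 stands apart at 2.68 and 2.34, and Bok, Bcl2l2 and Bcl2 lie below -1 in both groups.

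Paralogues of the p53 genes went both ways. Of 13 measured, 2 were higher (Sesn3 and Mdm4) and 4 lower in dedifferentiated cells (46.2% called, against 18.9% of all genes), and 1 was higher (Mdm4) and 3 lower in ES cells (30.8%, against 19.2%). Beside the rise of Gadd45a, Gadd45g went from a mean of 11.11 ± 0.021 on the fibroblast arrays to 7.51 ± 0.078 on the dedifferentiated and 7.39 ± 0.3 on the ES arrays (log2, SD, n = 3). It fell by 3.6 in dedifferentiated cells and fell by 3.72 in ES cells. Gadd45b differed from fibroblasts by -0.1 in dedifferentiated cells and by 0.97 in ES cells, and was lower in dedifferentiated than in ES cells by an average of 1.06 (adjusted p = 2.2e-05). Trp53inp2 fell by 1.56 and 1.97, beside the rise of Trp53inp1. Sesn3 rose by 1.16 in dedifferentiated cells and differed by 0.43 in ES cells, and Ccng2 fell by 1.28 in dedifferentiated cells and differed by -0.4 in ES cells.

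Sesn2 is also known as a target of ATF4, the transcription factor of the integrated stress response, and a list of that response was therefore set beside it. Of its 14 genes, Sesn2 included, 3 were higher and 2 lower in each comparison with fibroblasts (35.7% called, against 18.9% and 19.2% of all genes). The medians were -0.09 in dedifferentiated cells and 0.35 in ES cells, against 0.01 and 0.02 over all genes. Atf3, a stress-induced factor that p53 also induces, rose by 2.91 and 2.53, and Trib3 rose by 1.56 and 1.8. Atf5 fell by 1.15 and 1.42, and Nupr1 fell by 1.6 in dedifferentiated cells and differed by -0.97 in ES cells. The cystine transporter Slc7a11 differed by -0.82 in dedifferentiated cells and fell by 1.43 in ES cells. Ddit4, an mTOR inhibitor, was lower in dedifferentiated than in ES cells by an average of 1.11 (95% interval -1.33 to -0.9, adjusted p = 2.7e-05), and its fibroblast mean of 7.88 lay between 7.04 and 8.15.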

How the data were processed

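RNA of 9 mouse samples was read on 1-colour arrays. The deposited log2 values were made by the authors with RMA in Affymetrix Expression Console 1.1, per the submitters' processing notes. Since RMA normalizes arrays towards a common distribution, it hides any shift common to most transcripts and compresses changes near background. No detection calls are given, and the number of arrays limits precision.

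Rows with 1 symbol in the platform annotation (21789 of 35557) were used, taking the row with the highest mean per gene (19938 genes). No filter on low values was applied, and all 8 measured genes also passed the 2 filters tried. All arrays entered 1 fit (limma 3.58.1, R 4.3.3) without a replicate block.

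The genes, lists, tests and alternatives were chosen with earlier results of these data known. Named genes are the 8, the 3 largest called rises and falls of each of 5 lists in each comparison (or the smallest p), 8 measured genes given by name, and the 5 most like Pmaip1, the widest-ranging gene. Chek1 and Ep300 were named outside this rule, as activators of p53 that rose. Genes most like Trp53 were not sought, since Trp53 is not analysed here.

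On simulated arrays of 19938 genes, the comparison of dedifferentiated cells with fibroblasts called 65 of 67 genes given a change of 1.5 (log2) and 66 of 66 given 3. It called 0 of 67 given 0.5, which is below the required size. The simulated noise had the spread between these replicates, so this checks the fit and cannot show that the real calls are right. Promoter windows came from RefSeq (GRCm38.p6). A planned search of protein letters was not run. Alternatives covered normalization, filters, rows, variance models, the samples fitted, a replicate block, each left-out array and the thresholds.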

Additional observations from a re-analysis of the deposited data

Results flagged for a closer look

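By the limma test of dedifferentiated against ES cells, 5 genes of the lists were called, that is with a difference of at least 1 log2 unit. Called were 3.33% of the regulators (Mdm4), 4.88% of the other targets, 15.4% of the paralogues (with Mdm4 again) and 7.14% of the ATF4 list. Of all genes, 1.55% were called. At an adjusted p under 0.05 of any size, 13 of 30, 21 of 41, 7 of 13 and 8 of 14 genes of these lists differed. So did 4 of 15 of the BCL2 family, against 21.3% of all genes. Mdm4 was lower in dedifferentiated cells, at -1.13 log2 units (adjusted p = 7e-05), as were Perp at -1.29 (0.00015), Gadd45b at -1.06 (2.2e-05) and Ddit4 at -1.11 (2.7e-05). Dram1 was higher, at 1.04 (0.0019). For Ddit4 the differences from fibroblasts had opposite signs, -0.84 in dedifferentiated cells and 0.27 in ES cells. None of the 8 p53 genes met the required size in that test.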

How the results depend on the processing

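The number of the 8 genes called stayed at 4, 4 and 0 in all alternatives that kept the thresholds. At an adjusted p under 0.05 of any size, the alternatives gave 6 of the 8 in dedifferentiated cells against fibroblasts, 6 to 8 in ES cells against fibroblasts, and 1 to 5 between dedifferentiated and ES cells, the 5 with array weights. Of 552 alternative values for these genes, 542 kept their side of the threshold and 10 passed it only under laxer thresholds; 0 changed direction after a call. Without a minimum change, 8 of the 8 genes were called in ES cells against fibroblasts and 2 in dedifferentiated against ES cells, and 9445, 9773 and 4239 of all genes in the 3 comparisons. With a minimum of 1.5-fold, 1 of the 8 was called between dedifferentiated and ES cells, and 6301, 6445 and 1425 of all genes. With all rows of the table tested, 633 were called between dedifferentiated and ES cells, against 310; the cause was not tested beyond the larger number of rows. Promoter pairs with 3 mismatches were found in 4 windows, against 2. Arrays with the same replicate number did not deviate together (correlations of -0.204 to 0.25 over genes), so the numbers were not taken as a pairing. With the replicate number as a block, the counts of called genes were 3765, 3837 and 310, as without it, and 4, 4 and 0 of the 8 genes; the block moved the adjusted p of Zmat3 between dedifferentiated and ES cells to 0.044. Array weights brought the difference of Dram1 to 0.89, below the required size. Without 1 array each, 1 to 5 of the other p53 targets and 0 to 1 of the BCL2 family were called between dedifferentiated and ES cells. Without ES replicate 1, Psrc1 (-1.05) and Ephx1 (-1.11) were among the 5.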
